A study of Gallus gallus with 6 samples.

Results

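A set of 8 homeobox genes, listed as eye-field and retinal progenitor factors, was followed in embryonic chick retina: PAX6, SIX3, SIX6, RAX, LHX2, MEIS1, MEIS2 and PROX1. They were chosen by name, with earlier results of these data known. All 8 of the 8 listed symbols are among the 6789 genes of the count table, and all 8 passed the filter on low counts together with the other genes tested, 5041 in total. RNA was sequenced from retinal cells positive for Hes5.3, a chick gene of the Hes family of transcriptional repressors, that were isolated by flow cytometry from retinas of embryonic day 5. Control retinas were kept for 8 h in medium with serum and the solvent DMSO, and treated retinas for 8 h in the same medium with 2.5 µM retinoic acid (RA) in place of DMSO alone. Each library pools 2 retinas of different embryos, and each control library comes from the opposite eyes of the embryos of its RA library, which gives 3 pairs, numbered 1, 3 and 4. The labels give no strain, no sex and no details of how Hes5.3 was detected, and the sorted cells are a mixture whose make-up was not measured separately.

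Homeobox proteins are transcription factors that bind DNA through a homeodomain. PAX6, RAX, SIX3, SIX6 and LHX2 are switched on in the anterior neural plate, where they define the eye field, and they remain on in dividing progenitors of the neural retina. MEIS1 and MEIS2 belong to the TALE class, bind DNA with PBX partners, and respond to RA in the chick limb bud. PROX1, the vertebrate relative of Drosophila Prospero, promotes cell cycle exit and horizontal cell formation in the mouse retina and is also a lens gene. RA is a vitamin A derivative made in the early eye that acts through nuclear receptors.

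The libraries held 19808063 to 27235633 counts. Levels are given as CPM, the count of a gene relative to the scaled total of its library, and changes as log2 fold changes of RA against control from edgeR's quasi-likelihood test with the pair as a block. Intervals are 95% intervals, and adjusted p-values are Benjamini-Hochberg values over the 5041 genes. RA had acted on these cells: CYP26A1, which breaks RA down, stood at 73.5 to 86.1 CPM in the control libraries and at 2286 to 3902 CPM with RA (adjusted p = 2.14e-14). DHRS3, a retinaldehyde reductase, stood at 25.3 to 37.8 and 248 to 502 CPM (adjusted p = 1.34e-09), and RARB, a receptor gene that RA induces, at 66.5 to 88.0 and 112 to 176 CPM (adjusted p = 0.000588). Markers of cell types were also summed. Every library is of sorted cells, so these sums describe the libraries and cannot show what the sort enriched. Of 16 retinal progenitor markers, 13 are in the table, and their summed level was 9813 to 10861 CPM in the control and 10038 to 12850 CPM in the RA libraries. Abundant genes weigh most in such a sum: the control mean was 2433 CPM for NOTCH1 and 38.9 CPM for HES5. The 10 ganglion cell markers in the table summed to 804 to 957 and 791 to 1024 CPM. Markers of horizontal and amacrine cells, lens, pigment epithelium and mesenchyme were each under 107 CPM in sum in every library. The 6 blood genes in the table summed to at most 0.126 CPM, with HBM, HBE, HBE1 and GATA1 at 0.

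None of the 8 homeobox genes passed an adjusted p of 0.05 for a change with RA: edgeR called 0 of 8, where it called 1.07% of all genes tested. At an unadjusted p under 0.05 there were 3, PAX6 lower and SIX6 and MEIS1 higher, against 8.89% of all genes. By the fit 6 of the 8 were higher and 2 lower, with a median log2 fold change of 0.04 against -0.01 over all genes tested. The direction was the same in 3 of 3 pairs for 7 of the 8, 5 higher and 2 lower, while 30.0% of all genes kept 1 direction in the 3 pairs. The control and RA libraries did not overlap for 2 of the 8, PAX6 and MEIS1, and for 7.48% of all genes. These shares are descriptions of 8 genes. In bulk RNA, fewer cells that express a gene and less of its RNA per cell cannot be told apart.

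**Figure D1:**
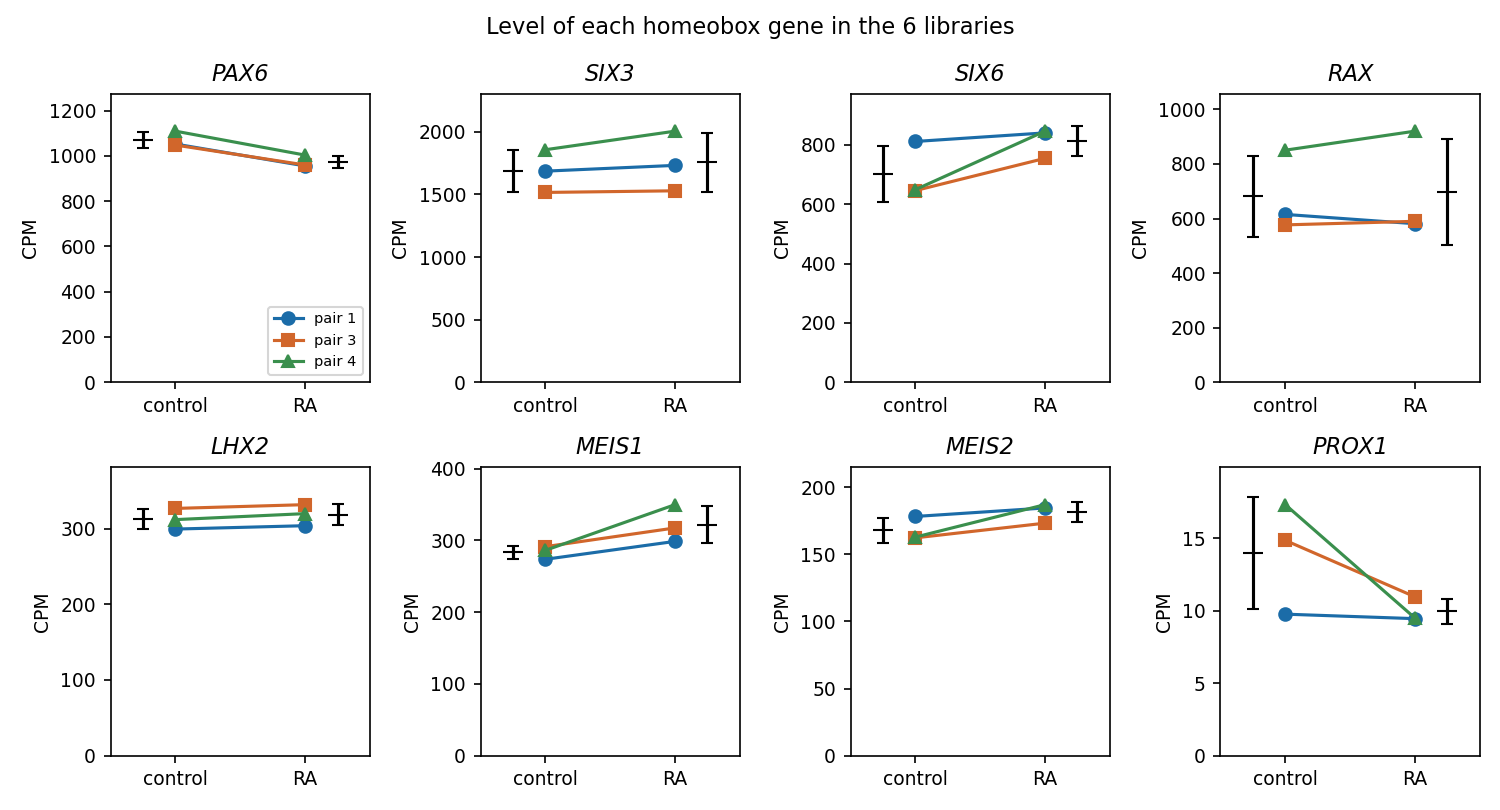
Level in CPM of the 8 homeobox genes in each library, control at left and RA at right, with a line joining the libraries of a pair; black marks are the group mean ± SD (n = 3). The lines of PAX6 slope down nearly in parallel, RAX is high in both libraries of pair 4, and PROX1 is spread among the controls but not with RA.

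PAX6, the paired-domain and homeodomain factor that keeps mouse retinal progenitors multipotent, was measured at 1053 CPM in the control library of pair 1, 1048 in pair 3 and 1109.8 in pair 4. With RA its level was 956 CPM in pair 1, 960.2 in pair 3 and 1004 in pair 4. Every RA library lay below every control library, and the groups did not overlap. The group means were 1070.3 ± 34.3 and 973 ± 26.5 CPM (SD, n = 3 each). The log2 fold change was -0.14 (SE 0.06, 95% interval -0.27 to -0.0037), with an unadjusted p of 0.0448 and an adjusted p of 0.557. The changes in the 3 pairs were -0.14, -0.13 and -0.14, with an SD of 0.0093. PAX6 did not pass, with a small difference of almost the same size in each pair. The SE from edgeR also draws on the spread of other genes, so it is not the spread of these 3 changes alone. At that SE, a change of 0.28 on the log2 scale would have been needed to reach the largest p that was called, 0.000493.

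SIX3 and SIX6 are close relatives of Drosophila sine oculis, and both act mainly as repressors. SIX3 stood at 1686 CPM in the control library of pair 1, 1516 in pair 3 and 1857 in pair 4, and with RA at 1732, 1529 and 2006 CPM in the same order. The groups overlapped, though the RA library of pair 4 lay above every control library. The order of the pairs was the same with and without RA. Its log2 fold change was 0.05 (SE 0.06, interval -0.08 to 0.19, adjusted p = 0.866). The interval for SIX3 thus ran from 0.947-fold to 1.14-fold.

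SIX6, also known as OPTX2, is expressed in the retina and pituitary and favours progenitor proliferation in the mouse. It was at 812 CPM in the control library of pair 1, 646 in pair 3 and 649 in pair 4. With RA it was at 841 CPM in pair 1, 755 in pair 3 and 847 in pair 4. Each RA library lay above its own control, but the RA library of pair 3 lay below the control library of pair 1, so the groups overlapped. The means were 702 ± 94.8 and 814 ± 51.3 CPM (SD, n = 3 each), and the log2 fold change was 0.22 (SE 0.07, interval 0.06 to 0.37, unadjusted p = 0.0087, adjusted p = 0.263). This was the lowest unadjusted p among the 8 genes in edgeR's fit. The change differed between pairs, at 0.05 in pair 1, 0.22 in pair 3 and 0.38 in pair 4. Without pair 1 the log2 fold change was 0.30 and the adjusted p 0.0132, in a fit that called 1.59% of the genes it tested, and without pair 4 it was 0.14 with an adjusted p of 0.813. Pair 1 had the smallest input, with 57000 sorted cells and 52.8 ng of RNA for its control and 98000 cells and 106.7 ng for its RA library, against 161000 to 200000 cells and 132 to 207.9 ng in the other pairs. The part of input in the SIX6 values was not tested.

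RAX, the retinal homeobox gene without which the mouse forms no optic vesicles, was measured at 615 CPM in the control library of pair 1, 577 in pair 3 and 851 in pair 4. With RA it was at 581, 589.8 and 920.3 CPM in the same order. Both libraries of pair 4 stood above the other 4, and the treatment did not separate the libraries. The log2 fold change was 0.02 (SE 0.07, interval -0.12 to 0.16, adjusted p = 0.968). RAX was the only one of the 8 genes that did not keep its direction, being lower with RA in pair 1 and higher in pairs 3 and 4.

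LHX2, a LIM-homeodomain factor that the mouse optic vesicle needs to become an optic cup, was close to level in the 6 libraries. Its control levels were 299 CPM in pair 1, 327 in pair 3 and 312 in pair 4, and its levels with RA were 304, 332 and 319.9 CPM. The log2 fold change was 0.03 (SE 0.07, interval -0.12 to 0.17, adjusted p = 0.955). The 3 changes were all slightly positive, at 0.02, 0.02 and 0.04, and their SD was 0.0084.

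MEIS1, which in the mouse binds enhancers of Pax6 and other eye genes, was at 274 CPM in the control library of pair 1, 291 in pair 3 and 286 in pair 4. With RA it was at 299 CPM in pair 1, 318 in pair 3 and 349.9 in pair 4. Every RA library lay above every control library. The means were 284 ± 9.06 and 322 ± 25.9 CPM (SD, n = 3 each), and the log2 fold change was 0.18 (SE 0.07, interval 0.03 to 0.33, unadjusted p = 0.0232, adjusted p = 0.453). The changes were 0.13 in pair 1, 0.12 in pair 3 and 0.29 in pair 4. In edgeR the fitted value was 0.13 without pair 4 (adjusted p = 0.838). It was 0.21 without pair 1 (adjusted p = 0.200) and 0.21 without pair 3 (adjusted p = 0.733). A change of 0.32 on the log2 scale would have been needed to reach the largest p called.

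MEIS2, its paralog, was at 178 CPM in the control library of pair 1, 162 in pair 3 and 163 in pair 4, and with RA at 184, 173 and 187 CPM. The values were higher with RA within each pair, by 0.05, 0.09 and 0.20 on the log2 scale, but the groups overlapped because the control of pair 1 lay above the RA library of pair 3. The log2 fold change was 0.11 (SE 0.08, interval -0.05 to 0.28, adjusted p = 0.730).

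PROX1 rested on far fewer reads than the other members, 214 to 458 per library. Its count was 232 in the control library of pair 1 (exact Poisson 95% interval 203 to 264), 323 in pair 3 (289 to 360.2) and 458 in pair 4 (417 to 502). With RA the counts were 264 (233 to 298), 214 (186 to 245) and 222 (194 to 253). Without molecular identifiers, such intervals describe the error of counting and nothing else. In CPM the controls were at 9.77, 14.9 and 17.3 and the RA libraries at 9.46, 10.97 and 9.50, so the controls spread widely while the RA libraries lay close together. The groups overlapped, since the control library of pair 1 lay below the RA library of pair 3. The log2 fold change was -0.45 (SE 0.21, interval -0.91 to 0.01, unadjusted p = 0.0526, adjusted p = 0.571). The changes were -0.05 in pair 1, -0.44 in pair 3 and -0.86 in pair 4, and without pair 4 the fitted value was -0.24 (adjusted p = 0.933). A change of 0.95 would have been needed to reach the largest p called. Of 11 markers of horizontal and amacrine cells, 6 are in the table and none is at 0 in every library. Their sum was 7.20 to 13.7 CPM in the control and 8.53 to 14.3 CPM in the RA libraries, and the 16 lens markers in the table summed to 70.05 to 87.1 and 77.8 to 107 CPM. Both sums were higher with RA in 3 of 3 pairs, but the single genes were mixed. Of those tested, 2 of 4 horizontal and amacrine markers and 3 of 8 lens markers kept 1 direction in the 3 pairs, beside 30.0% of all genes. The part of such cells in the PROX1 values was not tested.

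**Figure D2:**
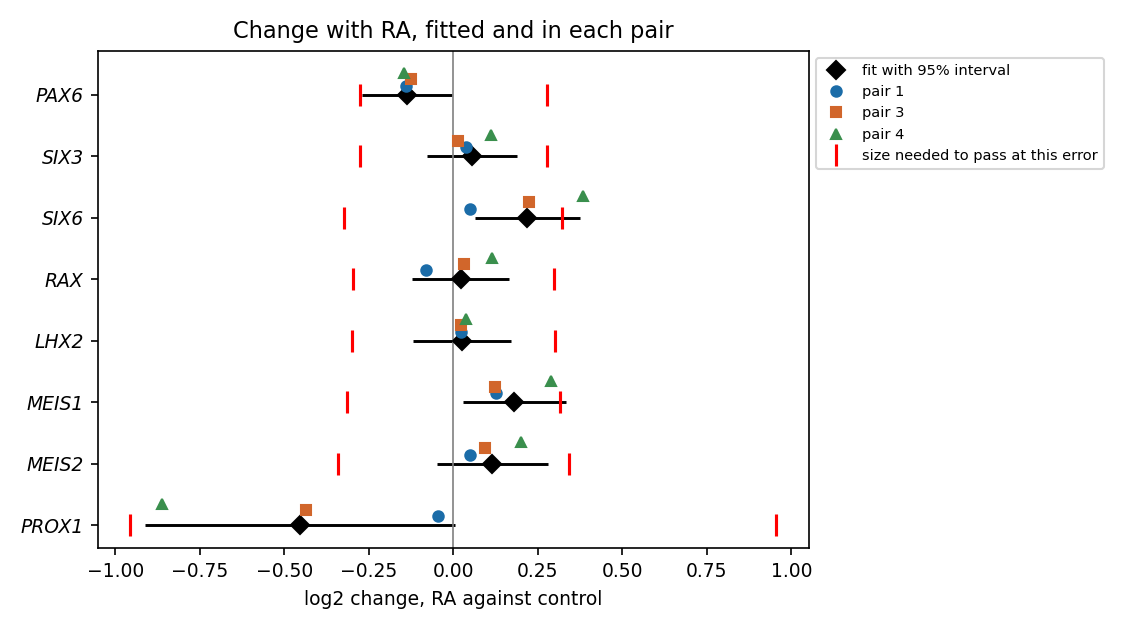
Log2 change with RA for each gene: diamonds and bars are the fitted value with its 95% interval, and coloured symbols the change per pair. Red ticks are the size that would have passed at that gene's SE from edgeR. All 8 fitted values lie inside the ticks, and the interval of PROX1 is the widest.

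The authors' deposited table, whose name calls it a paired comparison, gives nearly the same sizes. Whether its test used the pair as a block was not checked. Its p-values for SIX3 and RAX were 0.597 and 0.882, against 0.400 and 0.752 in edgeR's fit with the block. In the authors' deposited table the log2 fold change was -0.14 for PAX6 (p-value 0.0807), 0.22 for SIX6 (0.0292), 0.18 for MEIS1 (0.0318) and -0.45 for PROX1 (0.0807). The smallest adjusted p-value of a member in the authors' deposited table was 0.928, that of SIX6.

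How far the members differed between the pairs was tested in the same fit, with an F test of the pair terms. These terms hold the embryos together with all else that differed between pairs, such as the lower cell numbers of pair 1. The design cannot tell these apart. SIX3 (adjusted p = 0.0207) and RAX (adjusted p = 0.000304) passed, which is 2 of 8, beside 13.6% of all genes. For RAX the highest pair, pair 4, stood 1.52-fold above the lowest, pair 3, with pair means of 885 and 583 CPM. For SIX3 pair 4 stood 1.27-fold above pair 3, at 1931 and 1522 CPM. On the log2 scale the pair means spanned 0.34 for SIX3 and 0.60 for RAX, beside a median span of 0.27 over all genes tested. The treatment changes were 0.05 and 0.02, but a span from highest to lowest pair is another measure than a difference between 2 groups. The other 6 genes did not pass, and their highest pair lay between 1.05-fold (PAX6) and 1.33-fold (PROX1) above their lowest. Both calls depended on which pairs were present: SIX3 no longer passed when pair 3 (adjusted p = 0.248) or pair 4 (0.2805) was left out, nor did RAX when pair 4 was left out (0.857).

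Other progenitor genes also differed between pairs. Of the 13 progenitor markers tested, 8 passed the same F test, beside the 13.6% of all genes, and SOX9, NOTCH1, SFRP1 and TOP2A were among those highest in pair 4. Over all genes that passed it, 286 of 685, or 41.8%, were highest in pair 4. SOX9, a progenitor and later Müller glia factor, differed 2.23-fold between pairs 4 and 3, and TOP2A, a topoisomerase of dividing cells, 1.88-fold between pairs 4 and 1. HES5 and PCNA were instead highest in pair 3, and FGF19 in pair 1. The summed level of the progenitor markers was highest in both libraries of pair 4, though PCNA and FGF19 were lowest in that pair. Much of the difference in that sum lay in NOTCH1. It was at 2297, 2090 and 2912 CPM in the controls of pairs 1, 3 and 4, and at 2601, 2369 and 3898 CPM with RA. The sum of the ganglion cell markers was lowest in the libraries of pair 4, at 804 and 791 CPM. In the same libraries DCX and NEFM were lowest too. ELAVL4 was instead higher in the control of pair 4, at 245 CPM, than in those of pair 1 (183) and pair 3 (217). The part of cell make-up or of input in the levels of RAX and SIX3 was not tested.

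**Figure D3:**
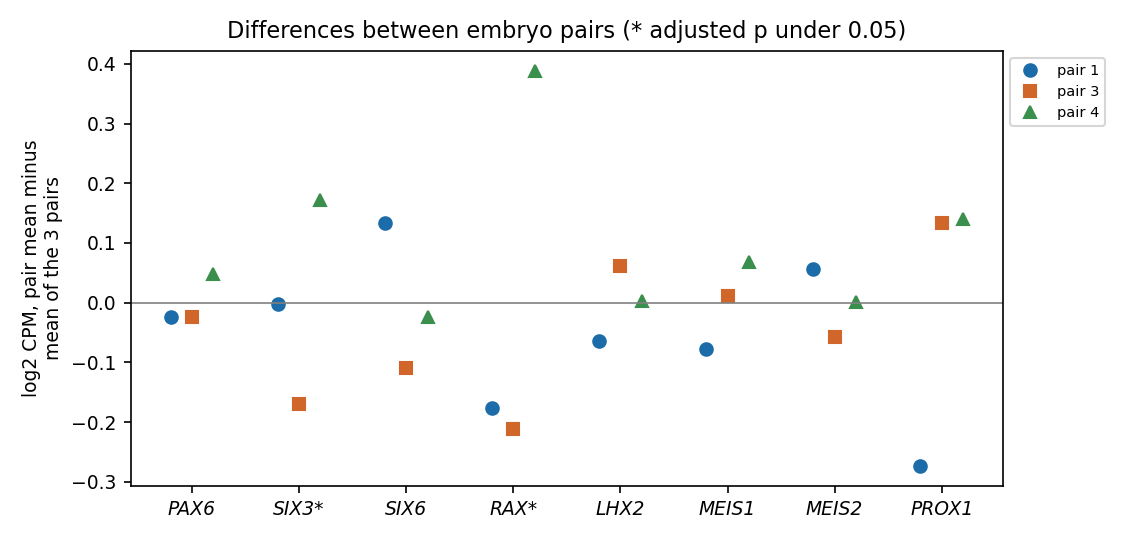
Mean log2 CPM of each pair minus the mean of the 3 pairs, for each homeobox gene; asterisks mark genes with an adjusted p under 0.05 for the pair. RAX has pair 4 well above the other pairs, SIX3 has pair 4 at the top and pair 3 at the bottom, PROX1 spans more than SIX3 without passing, and PAX6 shows the narrowest spread.

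Ratios within a library do not depend on how libraries are scaled, so paralogs were also set against each other. The share of SIX3 was planned, and its complement, the share of SIX6, is given here, which turns the direction of the change round. SIX6 made up 32.5% of the SIX3 and SIX6 counts in the control library of pair 1 (Wilson 95% interval 32.1 to 32.9), 29.9% in pair 3 (29.5 to 30.3) and 25.9% in pair 4 (25.6 to 26.2). With RA the share was 32.7%, 33.1% and 29.7%. The ratio of SIX6 to SIX3 was thus higher with RA in each pair, clearly beyond counting error in pairs 3 and 4 but not in pair 1. The mean paired change was 0.17 on the log2 scale (SD 0.14), and the exact two-sided sign-flip permutation test gave p = 0.25, the smallest that 3 pairs allow.

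MEIS1 made up 60.6%, 64.2% and 63.8% of the MEIS1 and MEIS2 counts in the controls of pairs 1, 3 and 4, and 61.8%, 64.7% and 65.2% with RA. The log2 ratio was higher with RA by 0.07 on average (SD 0.03) in 3 of 3 pairs, again with the smallest possible p of 0.25 in the exact sign-flip permutation test. The Wilson intervals of control and RA overlapped in each of the 3 pairs.

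**Figure D4:**
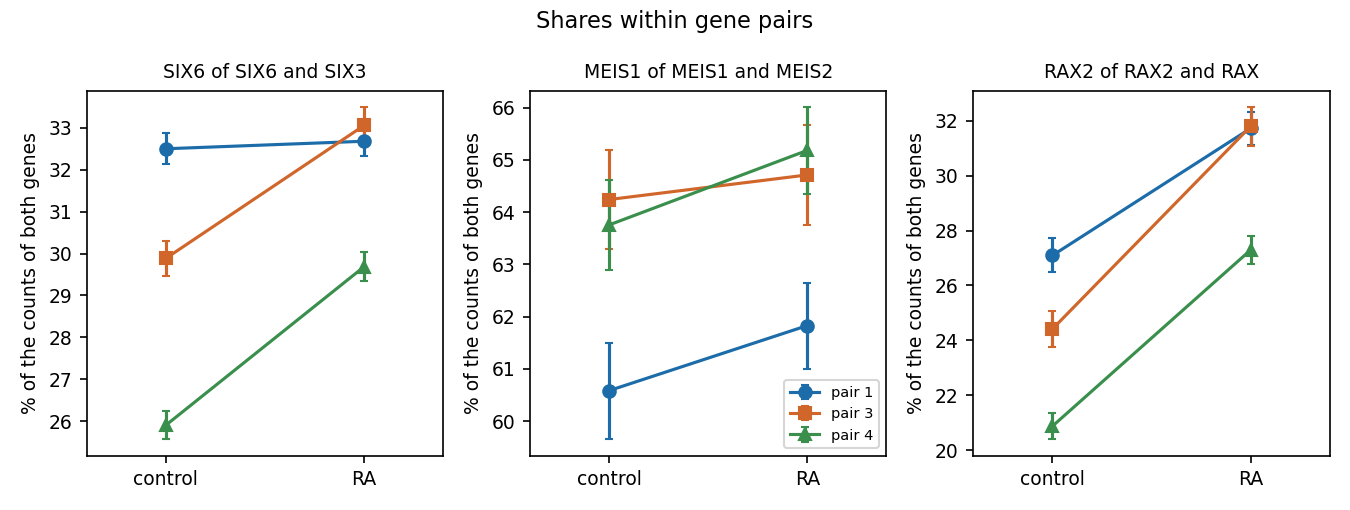
Share of SIX6 among SIX3 and SIX6 counts, of MEIS1 among MEIS1 and MEIS2 counts, and of RAX2 among RAX2 and RAX counts, in percent, per library with Wilson 95% intervals of counting error; lines join pairs and the vertical axes do not start at 0. All 9 lines go up from control to RA, least for SIX6 in pair 1 and for MEIS1 in pair 3. The gene chosen as the share sets whether a line goes up or down, and the RAX2 share was added after its rise was seen.

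Genes that work with the 8 factors were counted by role, from 6 lists with 68 symbols. Of these 45 are in the table and 44 were tested. RA raised 5 of the 44 and lowered none, beside 0.952% of all genes raised and 0.119% lowered. The median log2 fold change of the 44 was 0.08. The lists were chosen with earlier results of these data known, so these counts only describe the lists. Direct partners that could be tested showed no called change. Several partners are not in the count table and were not tested, among them TLE1, TLE2, TLE3, TLE4, TLE5, AES, EYA1, PBX2 and PKNOX1. In the list of EYA and DACH cofactors and further sine oculis relatives, 0 of 6 tested genes passed. EYA3, a phosphatase and coactivator of sine oculis proteins, had a mean of 439.9 CPM in the control and 424 CPM in the RA libraries (log2 fold change -0.05, adjusted p = 0.885), and DACH1, a corepressor, 101 and 104 CPM (0.03, adjusted p = 0.968). Geminin (GMNN), which binds SIX3 in the medaka fish, was the only gene tested of its list, at 96.7 and 94.9 CPM (-0.03, adjusted p = 0.958).

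Of the TALE partners 0 of 4 passed. TGIF1, a TALE repressor, stood at 236 and 220.2 CPM (-0.10, adjusted p = 0.770), and PBX3, of the family that MEIS proteins bind, at 94.3 and 104 CPM (0.15, adjusted p = 0.691). Of the LIM cofactors 0 of 6 passed. SSBP3, which stabilises LDB complexes, stood at 445 and 459 CPM (0.04, adjusted p = 0.918), and the ubiquitin ligase RLIM at 154 CPM in both groups (0.01, adjusted p = 0.986).

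The called genes lay in the other lists. Among 15 other retinal transcription factors tested, 3 rose with RA and none fell. RAX2, the second retinal homeobox gene of the chick, was at 229 CPM in the control library of pair 1, 186 in pair 3 and 224 in pair 4, and at 269.9, 275 and 345 CPM with RA. Every RA library lay above every control. Its log2 fold change was 0.47 (SE 0.08, adjusted p = 0.00635). Without pair 3 it was 0.43 with an adjusted p of 0.0813, and without the pair as a block the adjusted p was 0.547.

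RAX2 was set against RAX after its rise had been seen. It made up 27.1%, 24.4% and 20.9% of the counts of both genes in the controls of pairs 1, 3 and 4, and 31.7%, 31.8% and 27.3% with RA. The ratio was higher with RA in 3 of 3 pairs, by 0.45 on the log2 scale on average (SD 0.11, exact sign-flip permutation p = 0.25, the smallest possible). RefSeq lists RAX among the older names of RAX2 and gives both genes the older names RX1 and RX2, so which locus each of the 2 rows counts rests on the symbol in the deposited table.

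NR2E1, the orphan receptor tailless that keeps retinal progenitors dividing in the mouse, rose from 1520 ± 159.6 to 1982 ± 151 CPM (SD, n = 3 each; log2 fold change 0.39, adjusted p = 0.00386). FOXN4, which the mouse needs for amacrine and horizontal cells, rose from 75.3 ± 27.0 to 104 ± 21.6 CPM (0.50, adjusted p = 0.0247), with overlapping groups. Without pair 3 neither passed, with an adjusted p of 0.0665 for NR2E1 and 0.355 for FOXN4. VSX1, a homeobox gene of bipolar cells in the mouse, was lower in 3 of 3 pairs at -0.29 without passing (adjusted p = 0.0763).

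Among 12 proneural and cell cycle genes downstream of these factors in other species, 2 rose and none fell. The 2 are Wnt pathway genes of the list, neither proneural nor cell cycle genes, and SFRP2, also a Wnt gene of the list, did not pass (log2 fold change 0.15, adjusted p = 0.587). FZD5, a Wnt receptor of the early eye, was at 1890.4, 1477 and 2046 CPM in the controls of pairs 1, 3 and 4 and at 2380, 1977 and 2846 CPM with RA. The groups overlapped, but each RA library lay above its own control (log2 fold change 0.41, SE 0.06, adjusted p = 0.0029). SFRP1, a secreted Wnt antagonist, was at 529, 598 and 639 CPM in the controls and at 669, 757 and 879 CPM with RA, with no overlap (0.38, SE 0.07, adjusted p = 0.00578). Without pair 3 the adjusted p of SFRP1 was 0.0665. Without the block none of the 5 called genes passed.

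**Figure D5:**
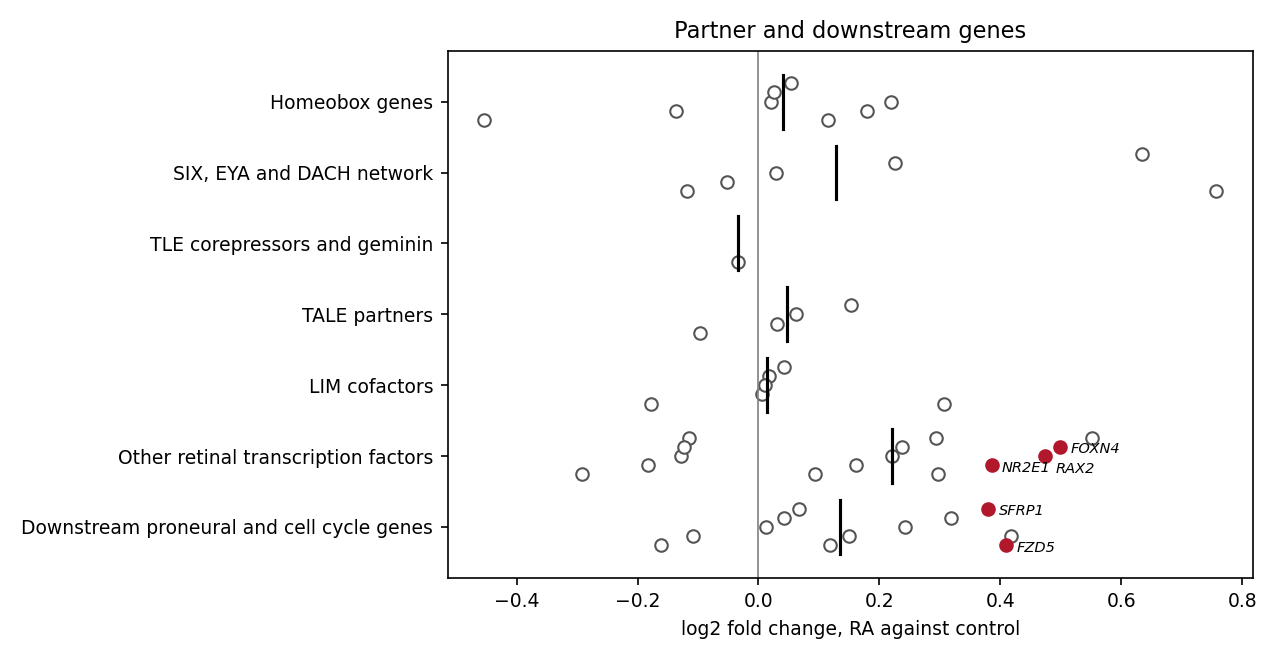
Log2 fold change with RA of the 8 homeobox genes and of the tested genes of each partner or downstream list; filled symbols have an adjusted p under 0.05, black bars are medians, and height within a row only separates the points. The 5 filled symbols, RAX2, FOXN4, NR2E1, SFRP1 and FZD5, all lie to the right of 0.

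The genes whose pattern over the 6 libraries was most like that of a member were sought for the 3 members with the largest spread, among 4492 candidates whose mean count reached 50. Likeness was the root-mean-square difference of log2 CPM, each gene centred on its own mean. Nearest to RAX was TBX5, a T-box factor of the dorsal retina, at 0.06, with 26.9, 26.3 and 35.6 CPM in the controls of pairs 1, 3 and 4 and 24.6, 23.8 and 40.2 CPM with RA. SGF29, a chromatin-binding subunit, followed at 0.07. Nearest to SIX6 was TIMP2, an inhibitor of metalloproteinases, at 0.05. Nearest to PROX1 were MCAM, a cell adhesion molecule, at 0.12 and the DNA polymerase gene POLK at 0.14. With 6 libraries and 4492 candidates, near matches of this kind are a description only.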

How the data were processed

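The authors deposited raw counts per gene symbol, a CPM table and a table that gives, for each gene, the log2 fold change, the p-value and its adjusted form. Per the submitters' processing notes, STAR 2.5.3a, HTSeq 0.6p1, edgeR 3.18.1 and the build galGal5 were used. The annotation and strand setting are not given in the sources used here. Each deposited CPM column equals the counts times 1 factor per library, to within a relative 3.33e-09. That table and the log2 table were read only for checks and for the values credited to the authors.

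All tests used the raw counts: edgeR 4.0.16 (R 4.3.3) with filterByExpr by group (minimum count 10, minimum total 15), TMM factors and glmQLFit with the pair as a block, which left 5041 of 6789 genes. Per-pair changes use log2 CPM with a prior count of 2. Intervals come from the F statistic and its degrees of freedom. The fit was tested on simulated data. limma 3.58.1 and DESeq2 1.42.0 were alternatives, with other scalings, filters and each pair left out.

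The pairing comes from the design, where opposite eyes of the same embryos are compared. The deviations of paired libraries from their group means correlated at 0.289, 0.248 and 0.338. Replicates differed by far more than sampling noise (chi-square per degree of freedom at least 49.5). With the pair as a block, p-values for RA rest on how far the change varied from pair to pair. In edgeR that error also draws on the spread of other genes. These p-values do not measure the spread between the pools of embryos. Named genes are the 8 members, the called genes of each list or otherwise its 2 most abundant, 3 check genes of RA action, and the 2 nearest genes of 3 members. A few genes that the rule names are not reported here. VSX1, SFRP2, NES, OTX2, DCX, NEFM, ELAVL4 and the pair-differing progenitor markers were named after their values were seen. The members and lists were chosen with earlier results of these data known. CPM levels of the members were not compared with each other, since transcript lengths for galGal5 were not used here. The planned level per coding length was not computed. The marker sums in CPM are corrected neither for transcript length nor for the number of genes in a list. No sequences or coordinates are given. RefSeq names come from GRCg7b, where all 8 members matched. In that build 2 other genes overlap MEIS2 and none overlaps the rest. Neither of the 2 is a symbol of the count table. How counting treated reads in such overlaps was not checked, so the MEIS2 counts may be affected if it ignored strand.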

Additional observations from a re-analysis of the deposited data

How the results depend on the processing

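The count of 0 called members held in 12 of 13 alternatives and was 1, SIX6, without pair 1. Each pair left out gave 0 to 1. At an unadjusted p under 0.05, 4 members were below it with limma-voom and 3 with DESeq2, neither of which called any, and 0 without the replicate block. In edgeR this number was 4 without pair 1, 1 without pair 3 and 0 without pair 4. With a pair left out, the log2 fold change of RAX ran from -0.0173 (without pair 4, reversed) to 0.0719, that of DACH1 from -0.0317 (without pair 4, reversed) to 0.111, that of GMNN from -0.0803 to 0.0515 (without pair 4, reversed) and that of RLIM from -0.0938 (without pair 1, reversed) to 0.0712. RLIM was also reversed without the replicate block (-0.00147). None of these was called in any fit, and the cause was not tested. The number of members that differed between pairs, 2, was 0 to 2 when a pair was left out and 1 at an adjusted p under 0.01. The 5 called partner and downstream genes were 1 to 5 when a pair was left out, 1 without pair 3, and 0 without the replicate block. Over all genes 54 were called, 7 without the replicate block, 85 with DESeq2, 85 with no filter on low counts, and 36 to 81 with a pair left out. VSX1 was called, lower, with DESeq2 (adjusted p = 0.0109) and with no filter (0.0291). The log2 ratio of SIX6 to SIX3 changed by 0.112 to 0.242, that of MEIS1 to MEIS2 by 0.0526 to 0.0828, and that of RAX2 to RAX by 0.415 to 0.519 when a pair was left out. The RAX2 share was added after seeing the data. The alternatives for the level per coding length were not run. The scalings moved the median of all genes by less than 0.01 on the log2 scale. Depth limits PROX1 most, at 214 to 458 counts.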

Other observations

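Among the retinal progenitor markers, NES, which encodes the intermediate filament nestin, rose with RA from 360.2 ± 33.5 to 563 ± 87.8 CPM (SD, n = 3 each). It stood at 394, 327 and 359.6 CPM in the controls of pairs 1, 3 and 4 and at 515, 509.8 and 664 CPM with RA, with no overlap (edgeR log2 fold change 0.64, adjusted p = 0.00071). Without the block its adjusted p was 0.138.

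Photoreceptor markers were low, and the 5 in the table summed to 63.1 to 79.3 CPM in the control and 83.2 to 100.4 CPM in the RA libraries, with RCVRN at 0. Of the 4 tested, 0 passed for RA in edgeR and 2 had an unadjusted p under 0.05, beside 1.07% and 8.89% of all genes. OTX2, a homeobox gene of photoreceptor precursors and pigment epithelium, had a log2 fold change of 0.55 (adjusted p = 0.283) and was higher in 3 of 3 pairs.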
